A study of Mus musculus with 44 samples.

Results

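Laminins and other matrix glycoproteins were followed through 44 RNA-seq libraries, made from primary astrocytes and primary microglia of mice grown in culture. The 36 genes were chosen by symbol, not by a cut-off on their values, with earlier results of these data known, from the 54146 gene identifiers of the count table. They comprise 10 laminin chains, 2 nidogens, fibronectin and vitronectin, 4 thrombospondins, 2 tenascins, 3 genes of the SPARC and periostin group, 6 fibulins, 2 fibrillins with Emilin1, and 4 matrilin and ECM protein genes. All 36 were found in the table, each under 1 identifier. The study set mouse glia of 4 APOE genotypes side by side. Per the labels the groups were APOE33, APOE44, Apoe KO (called knock-out here) and Apoe WT (wild type). Each cell type had 6 APOE33 libraries (4 female, 2 male), 6 APOE44 libraries (3 female, 3 male), 4 knock-out libraries (1 female, 3 male) and 6 wild-type libraries (3 female, 3 male). Every culture was untreated and was kept in media made for human microglia and astrocytes. Strain, age and the construction of the alleles are not given in the labels, nor is it said whether replicates came from separate animals, so p-values measure only the spread between these libraries. The 12 wild-type libraries carry the tag batch 2 and the other 32 the tag batch 1, so genotype and batch cannot be told apart in a comparison with wild type. Astrocyte APOE33 replicate 1 has a genotype tag of WT but the title, source and batch of APOE33, and was kept in APOE33.

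Matrix glycoproteins are secreted, modular proteins that give the extracellular matrix its adhesive and signalling sites. Laminins are heterotrimers of an alpha, a beta and a gamma chain that polymerise in basement membranes and are anchored to cells by integrins and dystroglycan; nidogens link them to collagen IV. Thrombospondins, tenascins and the SPARC proteins are called matricellular, because they modulate how cells meet the matrix rather than carry load, and in brain astrocytes are a known source of thrombospondins, tenascin-C, SPARC and the SPARC-like protein Sparcl1, which act on synapse formation. Fibulins, fibrillins and Emilin1 belong to elastic fibres and microfibrils.

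Total counts ran from 83239599 to 143150569 per library and RNA integrity numbers from 8.9 to 10.0. Levels are given as CPM, the count scaled to a common library total, and levels of different genes are compared only as CPM per kb of exon. Mouse Apoe checked the wild-type labels against the others. Its mean was 7185 CPM in wild-type astrocytes against 28.4 in APOE33, 29.1 in APOE44 and 13.3 in knock-out. In microglia it was 43206 CPM in wild type against 46.7, 45.8 and 12.4 in the same order. Mouse Apoe did not tell APOE33 from APOE44. The APOE33 astrocyte mean includes replicate 1, whose genotype tag is WT. All 6 APOE33 astrocyte libraries, replicate 1 among them, lay below all 6 wild-type astrocyte libraries for mouse Apoe. The labelled cell types carried their markers. A list of 15 astrocyte markers summed to 14417 to 20659 CPM in the astrocyte libraries and to 31.1 to 117 CPM in the microglia, and 15 microglia and macrophage markers summed to 19083 to 31902 CPM in the microglia and to 179.8 to 739.6 CPM in the astrocytes. Microglia APOE33 replicate 2 and APOE44 replicates 3 and 6, at 117, 111 and 104 CPM of astrocyte markers, stood above the other libraries of their genotypes, which reached at most 56.6 CPM. The same 3 libraries held 7.57, 6.83 and 5.61 CPM of neuron markers, against at most 1.80 CPM in any other microglia library. Results in microglia that rest on these 3 libraries are given with and without them, a choice made after the data were seen. Leaving them out keeps the knock-out libraries, at 78.2 to 114 CPM of astrocyte markers, and the wild-type libraries, at 45.9 to 88.2 CPM. The fits without the 3 libraries are therefore not balanced for astrocyte RNA. In bulk RNA a lower level can reflect fewer cells of a type or less RNA per cell, and these cannot be told apart.

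In astrocytes the matrix glycoproteins spanned a wide range, with matricellular genes at the top. Averaged over the 4 genotypes, Sparc, which encodes a collagen-binding counter-adhesive protein, was the most abundant per length at 1181 CPM per kb. It was followed by Sparcl1 at 258, Thbs1 at 239.9, the elastic fibre gene Fbln5 at 187, and the laminin beta chain Lamb2 at 103 CPM per kb. Among the laminin chains, Lamb2 was followed by Lama5 at 20.3, Lamc1 at 17.0 and Lama2 at 2.76 CPM per kb, while Lama4, Lamb1, Lama3, Lamc3, Lamb3 and Lama1 lay at 0.203 CPM per kb or less. Laminin RNA of astrocytes was thus led by 1 beta chain, 1 gamma chain and 2 alpha chains. Nid2 exceeded Nid1, at 26.5 against 1.05 CPM per kb, and Tnc exceeded Tnr, at 44.0 against 2.64 CPM per kb. Vtn, which encodes the adhesion protein vitronectin, and the laminin alpha chain Lama1 were close to 0, with at most 0.744 and 0.112 CPM in any astrocyte library.

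Microglia had another order. Fn1, which encodes the integrin ligand fibronectin, led at 53.4 CPM per kb, followed by Ecm1, which encodes a secreted matrix-associated protein, at 26.2, the fibulin Efemp2 at 7.51, Emilin1 at 6.76, Lamc1 at 6.60 and Postn at 5.48 CPM per kb. Lama3 was the most abundant laminin alpha chain of microglia at 1.82 CPM per kb, against 0.0692 for Lama5, 0.00663 for Lama2 and 0.00567 for Lama4. The usual partner of the Lama3 chain among the beta chains, Lamb3, was at 0.0127 CPM per kb, while Lamb2 was at 2.24. Vtn and Lama1 lay at 0.00783 and 0.00035 CPM per kb.

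**Figure D1:**
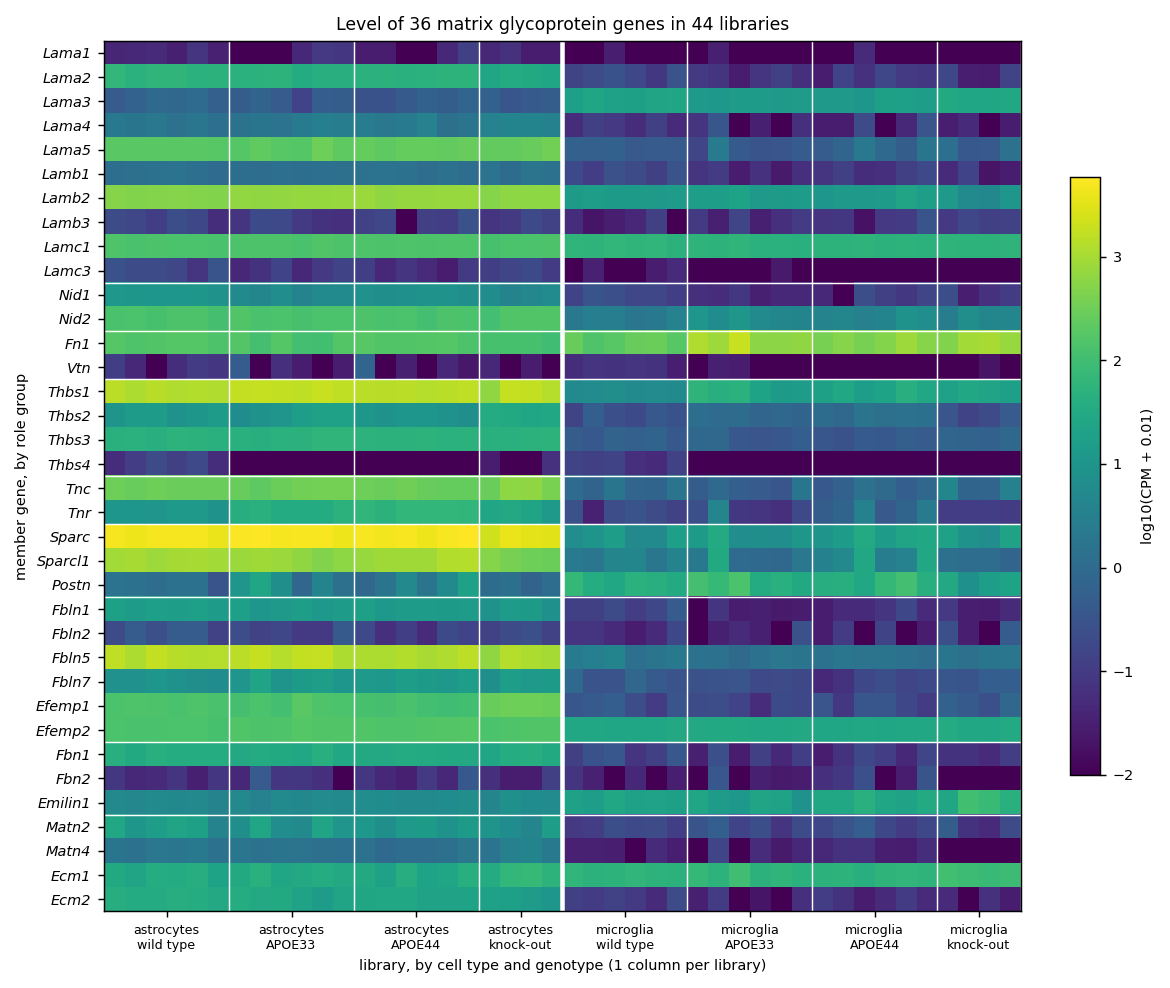
Level of each of the 36 genes (rows, by role group) in each of the 44 libraries (columns, by cell type and genotype) as log10(CPM + 0.01). Sparc, Thbs1, Fbln5 and Lamb2 are bright in every astrocyte library, Fn1 is the brightest row of the microglia, and Thbs4 is dark in all 32 libraries of batch 1 but for astrocyte knock-out replicates 1 and 4.

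The comparison of the cell types asked which glia express these genes. It was made in batch 1 (16 microglia against 16 astrocyte libraries, averaged over 3 genotypes) and again in wild type (6 against 6). All tests are edgeR quasi-likelihood F tests fitted over all genes, with Benjamini-Hochberg adjustment over all genes tested; a gene was called at an adjusted p under 0.05. In batch 1, 33 of the 36 genes passed the filter on low counts; 5 were higher and 25 lower in microglia, where 90.9% of all 21647 genes tested were called (40.3% higher, 50.6% lower). Their median log2 difference, microglia minus astrocytes, was -5.31, against -0.25 over all genes. In wild type, 5 were higher and 26 lower of 32 tested, where 89.5% of all genes were called (41.6% higher, 47.9% lower), and the median was -5.28 against -0.13. The same 5 genes were the higher ones in both: Lama3, Fn1, Emilin1, Ecm1 and Postn. Lama4, Lamc3, Fbln1, Matn4 and Ecm2 did not pass the filter within batch 1 microglia, and were tested in batch 1 through the astrocyte libraries. A lower call was nearly the only one open to them, and they are among the 25 lower and in the median. In wild type the same holds for Matn4, which did not pass the filter in microglia with the wild-type libraries included.

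Lama3, a laminin alpha chain of epithelial basement membranes, had 0.449, 0.730 and 1.02 CPM (lowest, median and highest) in wild-type astrocytes and 18.1, 22.1 and 25.2 CPM in wild-type microglia. In batch 1 it ran from 0.137 to 0.740 CPM in astrocytes and from 10.5 to 31.0 CPM in microglia. The log2 difference was 5.77 ± 0.17 (standard error) in batch 1 (edgeR adjusted p = 1.49e-22) and 5.39 ± 0.15 in wild type (adjusted p = 2.83e-12). No microglia library overlapped an astrocyte library. Microglia and macrophage markers summed to 179.8 to 739.6 CPM in the astrocytes, and their part in the astrocyte values was not tested.

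Emilin1, a glycoprotein of the elastic fibre surface, ran from 3.83 to 5.72 CPM (median 5.11) in wild-type astrocytes and from 15.96 to 28.2 CPM (median 19.98) in wild-type microglia. It differed by 2.98 ± 0.18 in batch 1 (edgeR adjusted p = 5.95e-15) and by 2.55 ± 0.11 in wild type (adjusted p = 1.96e-10), again without overlap. Fn1 ran from 141 to 178 CPM in wild-type astrocytes and from 150.1 to 296 CPM in wild-type microglia, ranges that overlapped. In batch 1 it ran from 99.4 to 188 CPM in astrocytes and from 383 to 1939.9 CPM in microglia, which did not. The log2 difference of Fn1 was 2.87 ± 0.16 in batch 1 (edgeR adjusted p = 1.07e-15) and 0.98 ± 0.16 in wild type (adjusted p = 0.000120).

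Ecm1 had 22.1, 33.0 and 39.9 CPM in wild-type astrocytes and 49.9, 53.2 and 63.0 CPM in wild-type microglia (lowest, median and highest), with log2 differences of 1.33 ± 0.13 in batch 1 (edgeR adjusted p = 3.39e-10) and 1.31 ± 0.14 in wild type (adjusted p = 2.59e-06). Postn, which encodes the fasciclin-domain protein periostin, had 0.312, 1.42 and 1.55 CPM in wild-type astrocytes and 28.6, 38.6 and 70.1 CPM in wild-type microglia. Its log2 differences were 4.09 ± 0.48 in batch 1 (edgeR adjusted p = 1.05e-08) and 5.60 ± 0.30 in wild type (adjusted p = 6.74e-09). Neither gene overlapped between cell types in wild type, and both did in batch 1, where astrocyte Postn ranged from 0.673 to 25.4 CPM.

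The sequence before the RefSeq start site is shown for the microglia-high genes Ecm1 and Postn because these 2 were the members with TATAAA, the letters of a TATA box, within 30 bases of the start. Each line holds the 250 bases before the start (RefSeq, GRCm38.p6; Ecm1 at chr3:95739570-95739819, minus strand; Postn at chr3:54360857-54361106, plus strand), 5′ to 3′ on the gene's strand, with capitals marking TATAAA (positions -27 to -22 in Ecm1 and -26 to -21 in Postn, counted back from the start) and, in Ecm1, TGAGTCA (-64 to -58), a match to the AP-1 motif TGANTCA.
Ecm1: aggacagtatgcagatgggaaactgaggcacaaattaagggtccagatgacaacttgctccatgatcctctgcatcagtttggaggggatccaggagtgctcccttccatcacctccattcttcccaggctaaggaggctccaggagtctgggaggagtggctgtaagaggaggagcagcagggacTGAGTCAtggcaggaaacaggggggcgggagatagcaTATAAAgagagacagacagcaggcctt
Postn: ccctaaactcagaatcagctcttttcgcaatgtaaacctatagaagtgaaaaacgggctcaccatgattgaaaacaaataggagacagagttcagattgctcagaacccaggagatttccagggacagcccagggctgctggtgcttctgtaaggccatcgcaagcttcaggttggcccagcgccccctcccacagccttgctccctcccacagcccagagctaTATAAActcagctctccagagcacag
Windows were found for 25 of the 36 genes. With both strands searched, TATAAA stood in 12.37% of all 32851 windows and in 6 of the 33 member windows (18.18%), from 5 of the 25 genes. TGANTCA stood in 6.75% of all windows and in 2 of the 33 member windows (6.06%), from 2 of the 25 genes. GAGGAAGT, the core motif of the myeloid factor PU.1, stood in 2.44% of windows and in none of the 25 genes, the microglia-high genes with a window included. The match is one of letters only.

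The other called members were lower in microglia. Within the laminins, Lama2, whose product is the alpha chain of the muscle and glial laminin, differed by -8.54 ± 0.15 in batch 1 (edgeR adjusted p = 2.76e-28) and Lamb2 by -5.18 ± 0.15 (adjusted p = 1.87e-22). Lama2 ran from 26.4 to 54.1 CPM in batch 1 astrocytes and from 0.0173 to 0.163 CPM in batch 1 microglia. Lamc1, the gamma chain shared by most laminins, differed least of the called members, by -0.91 ± 0.03 (edgeR adjusted p = 2.46e-20), from 122 to 157 CPM in astrocytes and from 46.5 to 59.0 CPM in microglia. This was a 1.88-fold difference.

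The thrombospondins Thbs3, Thbs2 and Thbs1 differed by -6.02 ± 0.12, -4.02 ± 0.18 and -5.31 ± 0.22 in batch 1 (largest edgeR adjusted p = 1.72e-18). Both nidogens were lower, Nid2 by -4.15 ± 0.17 and Nid1 by -5.77 ± 0.28, and so were both tenascins, Tnc by -7.76 ± 0.32 and Tnr by -5.85 ± 0.49 (largest edgeR adjusted p of these 4, 1.30e-11). Sparc differed by -7.61 ± 0.30 and Sparcl1 by -6.73 ± 0.58 (largest edgeR adjusted p = 1.87e-11). Among fibulins Fbln5, which organises elastic fibres, differed by -9.14 ± 0.15, the largest difference of any member, and Efemp1, Efemp2 and Fbln1 by -8.81 ± 0.18, -1.91 ± 0.05 and -7.91 ± 0.24 (largest edgeR adjusted p = 1.50e-22). Fbn1, the main fibrillin of microfibrils, differed by -8.13 ± 0.21 and Fbln7 by -5.31 ± 0.20, and Ecm2, Matn4 and Matn2 by -8.68 ± 0.26, -6.76 ± 0.37 and -5.16 ± 0.35 (largest edgeR adjusted p = 1.01e-13). The members that were not called were Fbn2, Fbln2 and Lamb3 in batch 1 and Thbs4 in wild type, each at no more than 0.469 CPM in any library of that comparison. In wild type Fbln2 and Lamb3 were called lower in microglia.

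Low levels in microglia were set beside the astrocyte RNA in the same libraries. The astrocyte marker sum in microglia was 0.168% to 0.633% of the mean sum of astrocytes of the same genotype in APOE33, 0.211% to 0.567% in APOE44, 0.466% to 0.682% in knock-out and 0.237% to 0.456% in wild type. The microglial mean of 9 of 35 members in APOE33, 11 of 35 in APOE44, 17 of 36 in knock-out and 8 of 36 in wild type was at or below the highest of these shares of its astrocyte mean, and for those members expression by microglia was not detectable above that level. In knock-out the share rests largely on Aldoc and Aldh1l1, at means of 39.7 and 24.9 CPM. These were the astrocyte markers called higher in knock-out than in APOE33 microglia. The share without them was not computed, so the knock-out count of 17 may be too high. Without the 3 microglia libraries with high astrocyte markers, the same 30 members were called in batch 1.

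**Figure D2:**
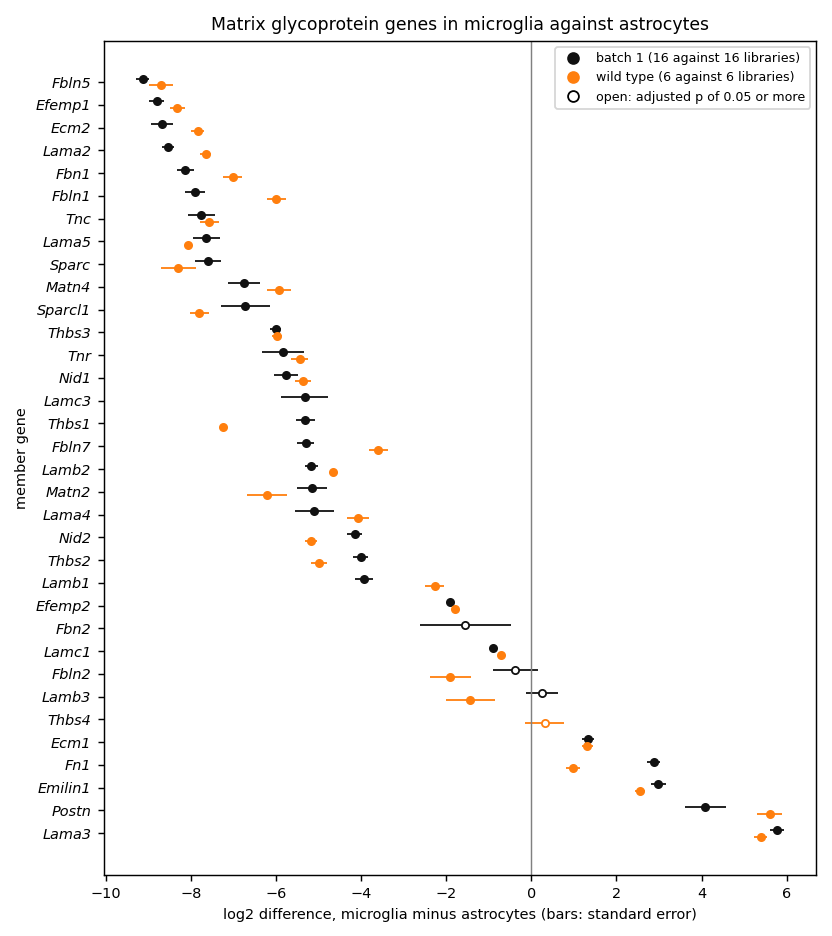
Log2 difference, microglia minus astrocytes, for each tested gene in batch 1 (black) and wild type (orange); bars are standard errors and open points missed an adjusted p of 0.05. Points for 5 genes, Ecm1, Fn1, Emilin1, Postn and Lama3, lie to the right of 0 in both, and most others lie between -4 and -9.

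Knock-out against APOE33 in astrocytes asked what differs where no Apoe is made, within batch 1. Of the 32 members tested, 3 were higher and 6 lower in knock-out, where 17.2% of all 20481 genes tested were called (8.37% higher, 8.83% lower), and the members' median log2 difference was -0.09 against 0.00 over all genes. The lower genes were the laminin chains Lama2, Lamb2 and Lamc1, the SPARC genes Sparc and Sparcl1, and Tnr. Efemp1, Thbs2 and Matn4 were the higher ones.

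Lama2 (chr10:26980036-27619758, GRCm38) had 26.4, 35.3, 31.0 and 26.4 CPM in the 4 knock-out libraries and 36.1, 46.0 and 52.9 CPM (lowest, median and highest) in the 6 APOE33 libraries. All knock-out libraries were below all APOE33 libraries. The log2 difference was -0.67 ± 0.11, or 1.59-fold lower (edgeR adjusted p = 0.000991). Lamb2, the abundant beta chain of astrocytes, had 534, 608, 614 and 603 CPM against 629, 691 and 756 CPM, again without overlap, a difference of -0.30 ± 0.06 (edgeR adjusted p = 0.00567). Lamc1 had 122, 138, 136 and 141 CPM against 130.1, 145 and 157 CPM, ranges that overlapped, and differed by -0.16 ± 0.05 (edgeR adjusted p = 0.0350); this call was lost without any 1 of 5 libraries, namely knock-out replicate 1, 3 or 4 or APOE33 replicate 1 or 3, with adjusted p-values up to 0.215. The other 6 tested laminin chains were not called, with Lama4 nearest at 0.79 ± 0.27 (adjusted p = 0.0535) and no overlap between 3.32 to 4.05 CPM in knock-out and 1.43 to 3.08 CPM in APOE33.

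Sparc (chr11:55394500-55423183) had 2261, 3900, 3464 and 3192 CPM in knock-out and 4267, 5097 and 5825 CPM in APOE33. Its log2 difference was -0.74 ± 0.14, or 1.67-fold lower, without overlap (edgeR adjusted p = 0.00323). Sparcl1, whose product promotes excitatory synapses where Sparc opposes them, had 519.6, 373, 315 and 297 CPM against 467, 711 and 883 CPM, overlapping by 1 library of each group, and differed by -0.85 ± 0.21 (edgeR adjusted p = 0.0128). Tnr, the tenascin of perineuronal nets, had 25.6, 29.9, 22.7 and 12.6 CPM against 34.9, 37.4 and 51.6 CPM, without overlap, a difference of -0.87 ± 0.20 (edgeR adjusted p = 0.0105). The 10 oligodendrocyte lineage markers were lower beside it, with sums of 216 to 227 CPM in knock-out and 242 to 273 CPM in APOE33 and with 3 called lower and none higher, and their part was not tested. Tnc, the other tenascin, was not called (0.47 ± 0.21, adjusted p = 0.136), with 285, 608, 653 and 403 CPM in knock-out and 212 to 370.0 CPM in APOE33.

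Efemp1, a fibulin also known as fibulin-3, had 265, 318, 310.0 and 288 CPM in knock-out and 109, 135 and 199 CPM in APOE33. The knock-out libraries were all above the APOE33 libraries, with a log2 difference of 1.06 ± 0.15, or 2.09-fold higher (edgeR adjusted p = 0.000715). Thbs2, a matricellular protein that binds CD36 and CD47, had 35.0, 32.3, 25.5 and 27.3 CPM against 6.51, 13.4 and 20.4 CPM, also without overlap, and differed by 1.07 ± 0.29, or 2.10-fold (edgeR adjusted p = 0.0215). Without knock-out replicate 1 the Thbs2 difference was 0.88 (adjusted p = 0.133), and it was also lost without APOE33 replicate 3. Matn4, an adaptor of matrix filaments, had 1.59, 3.22, 4.06 and 2.11 CPM against 1.27, 1.497 and 1.84 CPM, which overlapped, and differed by 0.78 ± 0.26 (edgeR adjusted p = 0.0486); 7 of the 10 fits that left out a library did not call it, with adjusted p-values up to 0.149.

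The 250 bases before the RefSeq start are shown for Efemp1 and Thbs2, the pair of members whose astrocyte levels about doubled in knock-out (GRCm38.p6; Efemp1 at chr11:28852955-28853204, plus strand; Thbs2 at chr17:14694263-14694512, minus strand). Capitals mark a match to the AP-1 motif TGANTCA in Efemp1 (-154 to -148) and TTTATA, which is TATAAA read on the other strand, in Thbs2 (-126 to -121).
Efemp1: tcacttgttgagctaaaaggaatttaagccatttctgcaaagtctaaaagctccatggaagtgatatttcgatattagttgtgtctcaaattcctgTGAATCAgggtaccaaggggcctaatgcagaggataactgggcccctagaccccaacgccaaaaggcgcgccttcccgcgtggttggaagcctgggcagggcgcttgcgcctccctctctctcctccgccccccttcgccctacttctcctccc
Thbs2: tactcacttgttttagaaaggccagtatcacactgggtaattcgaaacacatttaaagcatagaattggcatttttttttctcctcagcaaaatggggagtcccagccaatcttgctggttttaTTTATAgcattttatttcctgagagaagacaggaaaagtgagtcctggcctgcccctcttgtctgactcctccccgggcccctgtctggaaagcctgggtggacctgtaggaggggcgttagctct
Neither motif was shared by the 2 windows.

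Knock-out replicate 1, the only female knock-out astrocyte library, stood apart for several members. It held 633 CPM of Thbs1 where replicates 2 to 4 held 1788, 1744 and 1313, 630.3 CPM of Fbln5 where they held 1328, 1130 and 964, and the lowest Sparc and Lamb2 of the group. Without it, 8 members were called (3 higher, 5 lower), 7 of them among the 9 above; Lamc1 and Thbs2 dropped out and Ecm1 entered at 0.97 (adjusted p = 0.0469). Marker lists of other cells that the cultures could hold moved too. Ependyma and choroid markers summed to 122 to 262 CPM in knock-out against 273 to 409 CPM in APOE33 (8 genes, 2 called lower), mural cell markers to 187 to 416 against 376 to 496 CPM (10 genes, 3 higher and 1 lower), and the 15 astrocyte markers to 14417 to 18138 against 15257 to 20354 CPM (2 higher, 2 lower). Meningeal fibroblast markers summed to 1526 to 2595 CPM against 1355 to 1977 CPM (15 genes, of which Islr was called higher and Pdgfra and Col1a1 lower). Ogn, Islr and Serpinf1 made up most of these sums, with means of 1695, 237 and 208 CPM in knock-out and 1380.4, 161 and 106 CPM in APOE33; the means of the other 12 were 18.1 CPM or less in both groups, and Lum was at 0 in all APOE33 libraries. The part of these other cells in the differences was not tested.

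**Figure D3:**
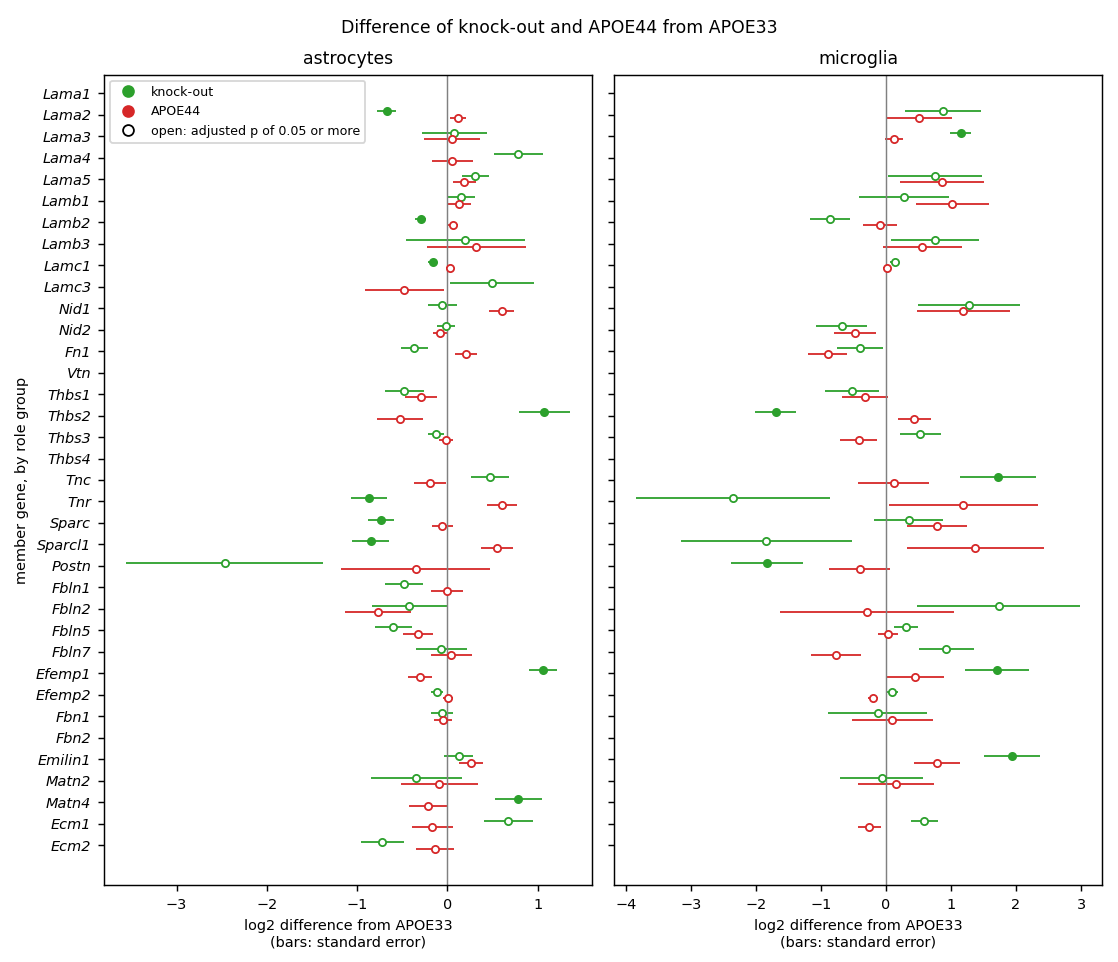
Log2 difference from APOE33 of knock-out (green) and APOE44 (red) for each gene in astrocytes (left) and microglia (right); bars are standard errors and open points missed an adjusted p of 0.05. Filled points are green only: 9 genes in astrocytes and 6 in microglia.

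In microglia, knock-out against APOE33 gave 4 higher and 2 lower of the 27 members tested, where 22.7% of all 17143 genes were called (10.9% higher, 11.9% lower); the members' median was 0.31 against -0.02 over all genes. The higher genes were Lama3, Emilin1, Efemp1 and Tnc, and the lower ones Thbs2 and Postn. The 9 members that did not pass the filter on low counts were Lama1, Lama4, Lamc3, Vtn, Thbs4, Fbln1, Fbn2, Matn4 and Ecm2.

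Lama3 had 31.0, 25.8, 26.0 and 29.3 CPM in knock-out microglia and 11.7, 13.7 and 14.96 CPM in APOE33. Every knock-out library was above every APOE33 library, with a log2 difference of 1.15 ± 0.16, or 2.22-fold higher (edgeR adjusted p = 0.000152). Emilin1 (chr5:30913402-30921277) had 25.4, 106, 79.5 and 46.7 CPM against 8.64, 18.5 and 25.9 CPM. Knock-out replicate 1 lay within the APOE33 range and the other 3 above it, and the difference was 1.94 ± 0.43, or 3.84-fold (edgeR adjusted p = 0.00558).

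Thbs2, which was higher in knock-out astrocytes, was lower in knock-out microglia, at 0.327, 0.141, 0.193 and 0.431 CPM against 0.7098, 0.925 and 1.22 CPM in APOE33. The groups did not overlap and the difference was -1.69 ± 0.32, or 3.24-fold lower (edgeR adjusted p = 0.00119). Postn had 30.7, 7.72, 16.5 and 22.6 CPM against 32.4, 60.3 and 134 CPM, without overlap, a difference of -1.83 ± 0.56 (edgeR adjusted p = 0.0301); 5 of the 10 fits that left out a library did not call it (up to adjusted p = 0.109), those without APOE33 replicate 1 or 3 or knock-out replicate 2, 3 or 4. Without the 3 libraries with high astrocyte markers its adjusted p was 0.0552. The 10 mural cell markers summed to 60.1, 40.5, 32.2 and 64.9 CPM in the same knock-out libraries and 62.8 to 129.8 CPM in APOE33, mostly from Cspg4; 1 of them was called lower and 2 higher, and their part was not tested.

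Efemp1 and Tnc were low in microglia, under 1 and 5 CPM. Efemp1 had 0.592, 0.423, 0.250 and 0.788 CPM in knock-out and 0.0449, 0.173 and 0.221 CPM in APOE33, a difference of 1.70 ± 0.49 (edgeR adjusted p = 0.0193) that was lost without knock-out replicate 1 or 4. Tnc had 4.39, 0.705, 0.732 and 3.37 CPM against 0.340, 0.511 and 1.71 CPM, overlapping, with 1.73 ± 0.59 (edgeR adjusted p = 0.0488), and was not called in 7 of 10 fits that left out a library (adjusted p up to 0.398). Both genes lay below the highest astrocyte marker shares given above: the microglial mean was 0.174% of the astrocyte mean for Efemp1 and 0.471% for Tnc in knock-out, against 0.682%, and 0.112% and 0.240% in APOE33, against 0.633%. On group means, expression of Efemp1 and Tnc by microglia was thus not detectable above the highest astrocyte marker share. In knock-out that share rests largely on Aldoc and Aldh1l1, at 39.7 and 24.9 CPM, the 2 astrocyte markers called higher. Tnc in knock-out replicates 1 and 4 was not set against the shares of those libraries. Knock-out replicates 1 and 4 were the high libraries for Tnc and Efemp1, and they were also the high ones for Sparc, at 20.1 and 20.9 CPM against 8.54 and 6.86. Their astrocyte markers summed to 114 and 107 CPM against 83.8 and 78.2 CPM in replicates 2 and 3, and 31.1 to 117 CPM in APOE33. The whole list of 15 astrocyte markers had 2 genes called higher and none lower in knock-out microglia, while the 15 microglia and macrophage markers had none higher and 4 lower, with sums of 24907 to 26256.5 CPM in knock-out and 27839 to 31902 CPM in APOE33. The part of these lists in the differences was not tested. Without the 3 APOE33 and APOE44 libraries with high astrocyte markers, 5 members were called: Lama3, Emilin1, Efemp1 and Thbs2 as before, and Lama5 at 1.49 (adjusted p = 0.0349). In that fit the knock-out libraries, at 78.2 to 114 CPM, held more astrocyte markers than the remaining APOE33 and APOE44 libraries, at most 56.6 CPM. Without knock-out replicate 4 the count was 3.

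**Figure D4:**
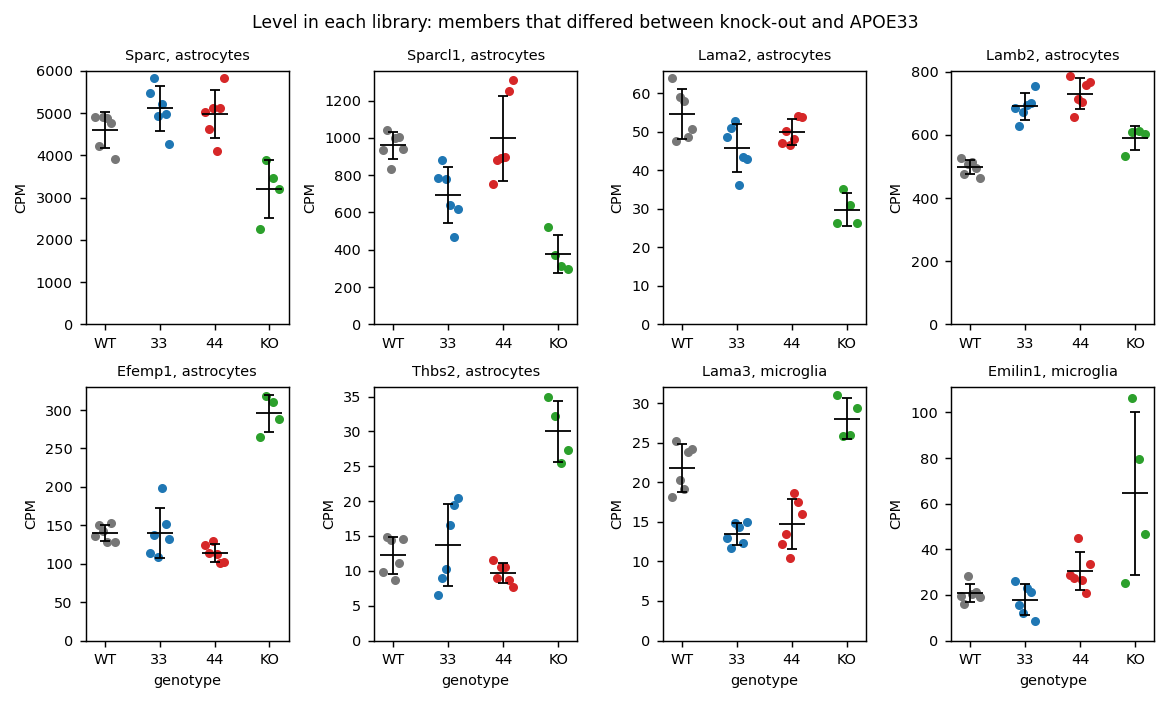
CPM in each library for 8 genes that differed between knock-out (KO) and APOE33 (33), with APOE44 (44) and wild type (WT) beside them; each point is 1 library, and the bar and whiskers are the mean and SD. The knock-out libraries are the lowest batch 1 libraries for Lama2 and Lamb2, and the highest for Efemp1, Thbs2 and, in microglia, Lama3.

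The difference between the cell types in the knock-out effect was tested directly over the 32 libraries of batch 1, as the effect in microglia minus that in astrocytes. Of 33 members tested, 6 were called (4 positive, 2 negative), where 12.7% of all genes were (6.18% positive, 6.55% negative). Thbs2 had the smallest p, with a difference of -2.78 ± 0.44 (edgeR adjusted p = 8.97e-05). Emilin1 differed by 1.81 ± 0.47 (edgeR adjusted p = 0.0108); in astrocytes it held 4.27, 8.02, 6.22 and 6.08 CPM in knock-out and 3.68 to 6.09 CPM in APOE33. Lama2 differed by 1.57 ± 0.47 (edgeR adjusted p = 0.0246), but its microglial level was at most 0.163 CPM in knock-out, and the call was lost without microglia knock-out replicate 1 or 4. Lamc1 differed by 0.29 ± 0.09 (edgeR adjusted p = 0.0311) and Fbln5 by 0.89 ± 0.29 (edgeR adjusted p = 0.0380); 4 and 8 of the 20 fits that left out a library did not call them, those without knock-out replicate 1 of either cell type among both. The knock-out microglial means of Lama2 and Fbln5, 0.0858 and 1.66 CPM, lay below the highest astrocyte marker share of their astrocyte means. So did their APOE33 means, 0.0684 and 1.49 CPM. The knock-out share rests largely on Aldoc and Aldh1l1. The part of astrocyte RNA in these differences was not tested. Matn4 was called as well (edgeR adjusted p = 0.0138): it had no count in the 4 knock-out microglia libraries and 24 counts over the 6 APOE33 libraries, of which 14 were in APOE33 replicate 2. Low counts were mostly even (62.4% to 78.7% of the counts from 1 to 9 in a library), as when both mates of a read pair are counted, so the floor for a group at 0 was set at 3 read pairs, or 6 counts, over the group. By this floor Matn4 was at least 2.69-fold lower in knock-out microglia, and at least 1.32-fold lower without APOE33 replicate 2, so its fitted value of -5.89 ± 1.58 is no measure of size. The Matn4 call was lost without microglia knock-out replicate 1 (adjusted p = 0.0510). Without microglia knock-out replicate 1, or without replicate 4, 3 members were called.

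APOE44 against APOE33 asked for the effect of the human isoform, and no member passed. In astrocytes 0 of 32 were called by edgeR (4 at an unadjusted p under 0.05), where 0.703% of all genes were called (0.420% higher, 0.283% lower); the median difference was -0.01 against 0.00 over all genes. DESeq2 called 3, all higher: Nid1 (adjusted p = 0.00353), Tnr (0.0127) and Sparcl1 (0.0479). Nid1, the laminin-binding basement membrane linker, had 7.27, 8.06 and 9.05 CPM in APOE44 and 3.83, 5.56 and 6.78 CPM in APOE33. These ranges did not overlap, and the difference of 0.60 ± 0.14 had an edgeR adjusted p of 0.0685, with 0.0453 when no filter on low counts was set, 0.0444 with no term for sex and 0.0472 without APOE33 replicate 3. Tnr had 50.3, 63.5 and 66.4 CPM against 34.9, 37.4 and 51.6 CPM, which overlapped by 1 library of each group, and a difference of 0.61 ± 0.17 (edgeR adjusted p = 0.192). The oligodendrocyte lineage markers summed to 273.0 to 341 CPM in APOE44 and 242 to 272.9 CPM in APOE33 in these astrocytes, with none of 10 called, and their part was not tested. Sparc, the most abundant member, differed by -0.06 ± 0.12 (edgeR adjusted p = 0.932), and Lamb2 by 0.06 ± 0.05 (adjusted p = 0.767).

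In microglia 0 of 27 were called by edgeR and by DESeq2, and 3 had an unadjusted p under 0.05, where 0.840% of all genes were called (0.379% higher, 0.461% lower); the median was 0.12 against 0.00 over all genes. Fn1 had the smallest p, with 383, 508 and 829.6 CPM in APOE44 and 567, 731 and 1939.9 CPM in APOE33, which overlapped, and a difference of -0.90 ± 0.30 (edgeR adjusted p = 0.233). Efemp2 came next, with -0.20 ± 0.08 (edgeR adjusted p = 0.347). Tnr and Sparcl1 differed by 1.19 ± 1.15 and 1.38 ± 1.05 with all libraries, and without the 3 libraries with high astrocyte markers by 2.22 (edgeR adjusted p = 0.0212) and 1.43 (adjusted p = 0.0381), the only 2 members then called; Tnr was also called without APOE33 replicate 2 alone. The remaining libraries held 0.392 to 0.720 CPM of Tnr in APOE44 and 0.0498 to 0.239 CPM in APOE33, levels far under those of astrocytes. For the difference in the APOE44 effect between the cell types, 0 of 33 members were called by edgeR (3 at an unadjusted p under 0.05). DESeq2 called Fn1 (-1.10, adjusted p = 0.0496), where edgeR gave -1.10 ± 0.33 (adjusted p = 0.167) and called 0.296% of all genes (0.152% positive, 0.143% negative). Without microglia APOE33 replicate 2, edgeR called 1, Tnr (2.81, adjusted p = 0.0331).

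Against wild type, each of the 3 edited genotypes was compared with the same 6 wild-type libraries, so the comparisons share their controls, and all differ from wild type in batch. In astrocytes 7 members were higher and 4 lower of 33 tested in APOE33 (39.0% of all genes called, 20.1% higher and 18.9% lower), 8 and 5 in APOE44 (41.7%, as 20.6% and 21.1%), and 11 and 8 in knock-out (38.3%, as 19.4% and 18.9%). The medians were 0.12, 0.00 and 0.02, against -0.02, -0.03 and 0.00 over all genes. The members called were 33.3%, 39.4% and 57.6% of those tested, and they moved in both directions.

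Tnr was at 8.94, 10.7 and 12.5 CPM in wild-type astrocytes. All edited astrocyte libraries lay above that range, although knock-out replicate 4, at 12.6 CPM, barely did. The log2 differences from wild type were 1.93 ± 0.16 in APOE33, 2.54 ± 0.16 in APOE44 and 1.08 ± 0.17 in knock-out (largest edgeR adjusted p = 7.42e-05). Oligodendrocyte lineage markers rose beside it: of 10, 9 were called higher in APOE33, 8 in APOE44 and 3 in knock-out, and 1, 0 and 1 lower, and their part was not tested.

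Lamb2 was at 465, 503 and 527 CPM in wild type, below every edited library, and was higher by 0.52 ± 0.06, 0.59 ± 0.06 and 0.25 ± 0.06 in APOE33, APOE44 and knock-out (largest edgeR adjusted p = 0.00266). Efemp2, a fibulin needed for elastic fibre assembly, was higher by 0.32 ± 0.05, 0.33 ± 0.05 and 0.22 ± 0.06 (largest edgeR adjusted p = 0.00515), and Fbln7 by 0.74 ± 0.21, 0.81 ± 0.20 and 0.73 ± 0.23 (largest 0.0181). Nid1 was lower in all 3, by -0.96 ± 0.13, -0.36 ± 0.13 and -1.003 ± 0.15 (largest edgeR adjusted p = 0.0281). These 5 genes were called the same way in all 3 comparisons, as was Thbs4 lower.

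Thbs4, a thrombospondin known in reactive astrocytes, had 0.0464 to 0.193 CPM in the wild-type astrocytes, 68 counts in all, even in each library, and no count in any of the 12 APOE33 and APOE44 astrocyte libraries. By the floor of 3 read pairs (6 counts) over the group it was at least 12.2-fold lower in APOE33 and 12.5-fold lower in APOE44. Knock-out astrocytes had 0.0179, 0, 0 and 0.0556 CPM, and a call (edgeR adjusted p = 0.0434) that was lost without knock-out replicate 1, 2 or 3. Thbs4 did not pass the filter on low counts within batch 1 astrocytes. It passed here only with the wild-type libraries, so a lower call was nearly the only one open to it.

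Other members differed from wild type in some of the genotypes. Lamc3 and Fbln2, both under 0.5 CPM, were lower in APOE44 by -1.78 ± 0.43 and -1.49 ± 0.39, and Lamc3 in APOE33 by -1.30 ± 0.41 (largest edgeR adjusted p = 0.0159). Postn was higher in APOE33 by 2.57 ± 0.80 and in APOE44 by 2.19 ± 0.78 (largest edgeR adjusted p = 0.0314), with values spread from 0.789 to 25.4 CPM in APOE33 against 0.312 to 1.55 CPM in wild type; the APOE44 call was lost in 7 of 12 fits that left out a library (adjusted p up to 0.160). Thbs1 (0.47 ± 0.16), Lamc1 (0.13 ± 0.05) and Sparcl1 (-0.44 ± 0.16) were called in APOE33 (largest edgeR adjusted p = 0.0369), and all 3 were lost without wild-type replicate 5, when 7 members were called. Lamc1 (0.17 ± 0.05), Lama5 (0.39 ± 0.11), Emilin1 (0.39 ± 0.13) and Ecm2 (-0.54 ± 0.18) were called in APOE44 (largest edgeR adjusted p = 0.0227).

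Knock-out astrocytes had further calls against wild type; the comparison shares its knock-out libraries with that against APOE33. Efemp1 was higher than in wild type by 1.11 ± 0.13, Thbs2 by 1.29 ± 0.26 and Lama4 by 1.15 ± 0.24, and Lama2 was lower by -0.84 ± 0.11, Sparcl1 by -1.31 ± 0.18 and Sparc by -0.49 ± 0.13 (largest edgeR adjusted p = 0.00357). Ecm2 was lower by -1.11 ± 0.21 and Lama5 higher by 0.52 ± 0.12 (largest edgeR adjusted p = 0.00225). Lamb2 stood otherwise, lower than in APOE33 but higher than in wild type, and so did Tnr. The remaining 7 calls (Tnc, Ecm1, Fn1, Fbln7, Fbln1, Matn4 and Thbs4) ran from -2.53 to 0.87.

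In microglia 4 members were higher and 10 lower than in wild type of 31 tested in APOE33 (44.8% of all genes called, 22.2% higher and 22.6% lower), 5 and 7 in APOE44 (45.4%, as 22.3% and 23.1%), and 6 and 3 in knock-out (42.4%, as 20.9% and 21.5%); the medians were -0.12, -0.05 and -0.02, against -0.01, -0.01 and -0.03 over all genes. Thbs1 (chr2:118111876-118127133), an activator of latent TGF-beta, had 5.45, 5.93 and 7.11 CPM in wild type. It had 13.8, 31.9 and 56.3 CPM in APOE33, 16.3, 25.1 and 42.9 CPM in APOE44, and 19.4, 26.5, 23.3 and 18.4 CPM in knock-out. All 16 edited libraries were above all 6 wild-type libraries, with differences of 2.43 ± 0.33, 2.12 ± 0.32 and 1.92 ± 0.35 (largest edgeR adjusted p = 0.000233).

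Fn1 (chr1:71585520-71653200) had 150.1, 228 and 296 CPM in wild-type microglia and at least 383 CPM in every edited library. Its differences were 2.08 ± 0.31 in APOE33, 1.19 ± 0.30 in APOE44 and 1.76 ± 0.34 in knock-out (largest edgeR adjusted p = 0.00301). Thbs2 was higher in APOE33 by 1.77 ± 0.29 and in APOE44 by 2.15 ± 0.28 (largest edgeR adjusted p = 3.61e-05) and at -0.02 ± 0.33 in knock-out, whose 0.141 to 0.431 CPM lay within the wild-type range of 0.139 to 0.510 CPM. Nid2 was higher in APOE33 by 1.503 ± 0.30 and in APOE44 by 1.02 ± 0.30 (largest edgeR adjusted p = 0.00867). Reads are not separated by strand as far as the sources used here say, and 2.5% of the exon bases of Fn1, 3.4% of Thbs1 and 8.4% of Nid2 overlap a gene on the other strand.

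Lama3 was lower than in wild type in APOE33 by -0.68 ± 0.13 and in APOE44 by -0.56 ± 0.13, and higher in knock-out by 0.42 ± 0.15 (largest edgeR adjusted p = 0.0247). Its medians were 22.1 CPM in wild type, 13.7 in APOE33, 14.7 in APOE44 and 27.6 in knock-out. Emilin1 and Ecm1 were called in knock-out, by 1.74 ± 0.34 and 0.81 ± 0.18 (largest edgeR adjusted p = 0.00121), the latter with 106, 89.2, 81.6 and 90.9 CPM against 49.9 to 63.0 CPM. Efemp2 was called there too, by 0.26 ± 0.09 (edgeR adjusted p = 0.0200), but not without knock-out replicate 1 or 4, and the Lama3 call in knock-out was lost without knock-out or wild-type replicate 1. The gamma chain Lamc1 was lower in APOE33 by -0.19 ± 0.06 and in APOE44 by -0.17 ± 0.06 (largest edgeR adjusted p = 0.0248).

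The remaining calls in microglia were of genes under 5 CPM, mostly lower than in wild type. Thbs4 had 58 counts over the wild-type microglia and none in the 16 edited libraries, at least 10.02-fold lower in APOE33, 10.5-fold in APOE44 and 6.75-fold in knock-out by the same floor of 6 counts. The member medians are the same with Thbs4 at these bounds. Fbln1, lower in all 3, differed by -2.94 ± 0.65, -1.66 ± 0.57 and -2.18 ± 0.69 (largest edgeR adjusted p = 0.0211), at no more than 0.463 CPM. Fbln5, Lama2 and Fbln7 were lower in APOE33 and APOE44, by -0.69 to -1.84, Lamb1 in APOE33 (-2.02 ± 0.51) and knock-out (-1.76 ± 0.59), and Nid1 and Ecm2 in APOE33 (-2.02 ± 0.64 and -1.90 ± 0.71). Thbs4, Fbln1 and Ecm2 did not pass the filter on low counts within batch 1 microglia. They passed it here only with the wild-type libraries, so a lower call was nearly the only one open to them. They are included in the counts of lower members given for microglia against wild type. Tnr was higher in APOE44 by 3.02 ± 0.97 (edgeR adjusted p = 0.0163), a call lost without APOE44 replicate 3. Marker lists of other cells moved in the same comparisons. Of 10 meningeal fibroblast markers tested in microglia, 4, 4 and 5 were called lower and 1, 2 and 1 higher in APOE33, APOE44 and knock-out; Dcn, Col1a1, Col1a2 and Col3a1 were lower in all 3, from wild-type means of 0.741, 0.528, 0.578 and 0.366 CPM to 0.0188 CPM or less. The choroid gene Ttr had a mean of 1.63 CPM in wild type and 0 in all 3 edited groups, and 2, 2 and 1 of 4 ependyma and choroid markers tested were lower and 0, 0 and 1 higher. Of 9 oligodendrocyte lineage markers tested, 6, 9 and 3 were higher and none lower. Of the astrocyte markers, Aldh1l1 (-0.74), Aldoc (-0.62) and Gja1 (-1.09) were called lower in APOE33. In APOE44 Aldh1l1 was lower (-0.83) and S100b higher (2.71), and in knock-out Aldh1l1 (1.19) and Aldoc (1.06) were higher. Wild-type microglial Fbln5 and Lama2, at means of 2.41 and 0.191 CPM, lay below the highest astrocyte marker share of their astrocyte means. The part of these lists in the differences was not tested. Without the 3 libraries with high astrocyte markers, the counts were 17, 11 and 14 for APOE33, APOE44 and knock-out, and Sparcl1 in APOE33 turned from 0.70 ± 0.89 (edgeR adjusted p = 0.561) to -1.16 (adjusted p = 0.00291).

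**Figure D5:**
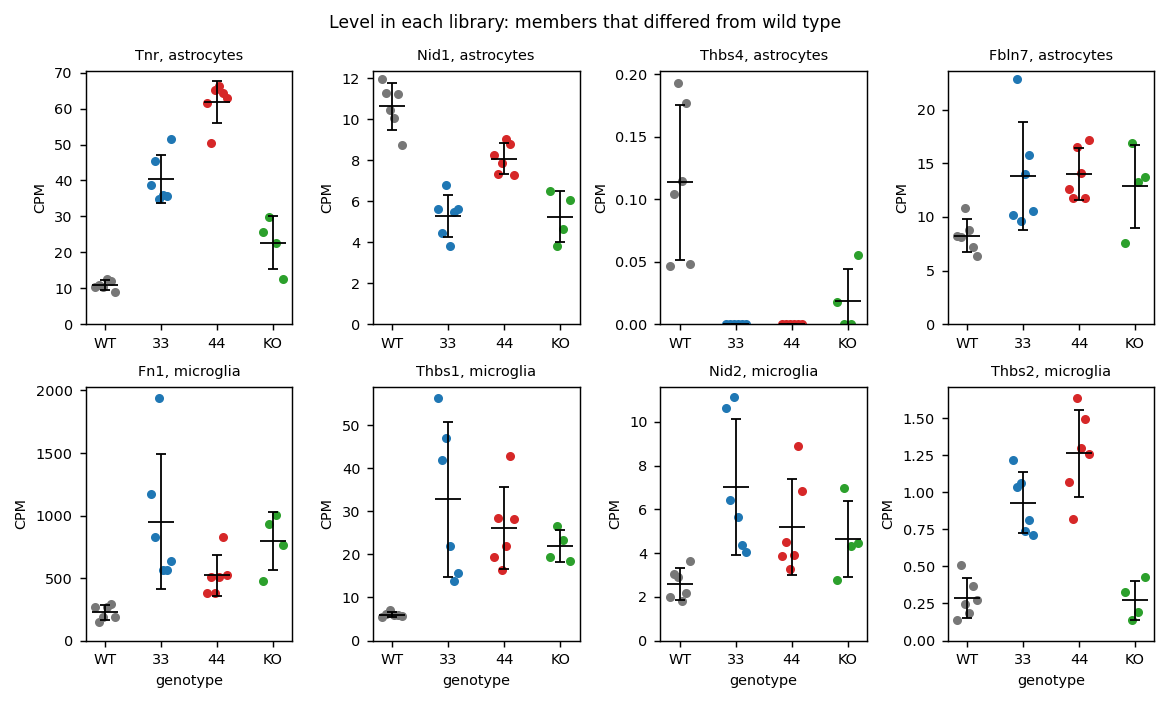
CPM in each library for 8 genes that differed from wild type (WT) in APOE33 (33), APOE44 (44) or knock-out (KO); each point is 1 library, and the bar and whiskers are the mean and SD. Fn1 and Thbs1 in microglia and Tnr in astrocytes have no wild-type library within the range of the edited ones, and Thbs2 in knock-out microglia is at its wild-type level.

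Receptors and partners of these proteins were read from lists of other genes. In knock-out against APOE33 astrocytes, 6 of 25 tested matrix receptors were higher and 1 lower (28.0% called, against 17.2% of all genes). Bcam, a laminin receptor, rose by 1.24 ± 0.19 and the integrin Itga8 by 0.61 ± 0.15, and Dag1, which encodes the laminin receptor dystroglycan, fell by 0.30 (largest edgeR adjusted p = 0.0112). Where these genes lie relative to the edited Apoe locus was not examined, so a local effect of the allele on Bcam was not tested. Of 20 basement membrane and elastic fibre partners 2 were higher and 2 lower (20%), among them the collagen IV chain Col4a5 (0.29 ± 0.06) and the latent TGF-beta binding proteins Ltbp4 (-0.88 ± 0.24) and Ltbp1 (0.89 ± 0.27; largest edgeR adjusted p = 0.0377). Of 25 related glycoproteins 3 were higher and 2 lower (20%), with Spp1 at 1.34 ± 0.28, Vwa1 at 1.08 ± 0.24 and Igfbp7 at -0.86 ± 0.20 (largest edgeR adjusted p = 0.00936). Spp1 averaged 19.3 CPM in APOE33 astrocytes, against 8499 CPM in APOE44 microglia and 11213 CPM in wild-type microglia. Microglia and macrophage markers summed to 217 to 740 CPM in APOE33 astrocytes and 320 to 636 CPM in knock-out astrocytes. The part of microglial RNA in the Spp1 difference was not tested.

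In knock-out microglia, 5 of 23 matrix receptors were higher and 1 lower (26.1%, against 22.7% of all genes), including the integrin chains Itgb1 (0.24 ± 0.04), Itga4 (0.40 ± 0.09) and Itga8 (1.29 ± 0.37; largest edgeR adjusted p = 0.0206). Of 17 partners 3 were higher and none lower (17.6%), namely Ltbp3 (0.78 ± 0.23), Loxl3 (0.40 ± 0.13) and Col4a1 (0.82 ± 0.29; largest edgeR adjusted p = 0.0491), and of 17 related glycoproteins 1 was higher (5.88%), Emilin2, a relative of Emilin1 (1.15 ± 0.16, edgeR adjusted p = 0.000160). In APOE44 against APOE33 no gene of the 3 lists was called in astrocytes, and in microglia 1 was, the syndecan Sdc4 (0.42 ± 0.09, edgeR adjusted p = 0.0432). Between the cell types in batch 1, all 20 partners were lower in microglia, led by Col4a1 at -8.73 ± 0.15, while the receptors divided into 10 higher and 15 lower, where 90.9% of all genes were called (40.3% higher, 50.6% lower). Itga5, the main fibronectin-binding integrin alpha chain, was higher in microglia by 4.48 ± 0.05, as Fn1 was, and the laminin-binding Itga3 was lower by -7.93 ± 0.22 (largest edgeR adjusted p of these 3, 1.07e-22).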

How the data were processed

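Raw read counts per gene were deposited by the authors as 1 table of 44 libraries and 54146 gene identifiers; no normalization was applied to them. Per the labels' protocols, RNA was extracted from cultured cells with RNeasy kits and sequenced as paired reads after NEBNext Ultra preparation. STAR 2.5.3a, featureCounts, edgeR 3.26.8 and the build hg38 are named per the submitters' processing notes; a mouse build is not given in the sources used here, nor is strand-specific counting. Identifiers were matched to GENCODE M21 (54079 matched, 96.9% of all with the same version).

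Counts were fitted with edgeR 4.0.16 in R 4.3.3 (filterByExpr by group, TMM, robust quasi-likelihood F test, sex as a covariate), within each cell type for genotypes, with libraries of batch 1 for the comparisons with APOE33, all 22 for those with wild type, and both cell types for the cell type comparisons. Benjamini-Hochberg adjustment ran over all genes tested. The standard error was taken from the log2 difference and its F value. The script was tested on simulated data. No 2 of the 102 replicate pairs held identical values. Alternatives were RLE scaling, no filter on low counts, DESeq2 1.42.0, no term for sex, a replicate block, each library left out, and 3 microglia libraries left out. Members and gene lists were chosen with earlier results of these data known. Every called member was named where 12 or fewer were called in a genotype comparison, otherwise the 12 with the smallest adjusted p; where none was called, the 2 with the smallest p were named. In cell type comparisons up to 4 per role group and each member against the majority direction were named, and up to 3 called genes per other list. Promoter windows are from RefSeq (GRCm38.p6).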

Additional observations from a re-analysis of the deposited data

Results flagged for a closer look

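Of 60 groups of 4 to 6 library values, 2 held a value far from the others, and chance flags about 5% of groups. Lamb2 in astrocyte knock-out replicate 1 was at 534.2 CPM, while the other 3 knock-out libraries lay between 602.8 and 613.9 CPM. Tnr in astrocyte APOE44 replicate 2 was at 50.34 CPM, while the other 5 lay between 61.51 and 66.36 CPM.

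The knock-out effect differed between microglia and astrocytes, by a test of the difference itself, for 6 members. The differences on the log2 scale were -2.783 for Thbs2, 1.806 for Emilin1, -5.891 for Matn4, 1.574 for Lama2, 0.2942 for Lamc1 and 0.8908 for Fbln5 (edgeR adjusted p from 8.97e-05 to 0.0380). Matn4 had no count in knock-out microglia, and Lama2 was under 0.2 CPM in every batch 1 microglia library. Microglial means of Lama2 and Fbln5 lay below the highest astrocyte marker shares in knock-out and APOE33. The knock-out share rests largely on Aldoc and Aldh1l1. The part of astrocyte RNA in their differences was not tested.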

How the results depend on the processing

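Counts of called members stayed within 1.5 times in 261 of 278 refits. Those of APOE44 against APOE33 in astrocytes moved from 0 to 3 with DESeq2, 1 with no filter and 1 with no term for sex, and those in microglia to 2 without the 3 libraries with high astrocyte markers. For knock-out against APOE33 in astrocytes DESeq2 called 14 where edgeR called 9. Knock-out against wild type in microglia gave 14 without those 3 libraries. The APOE44 effect between cell types gave 1 with DESeq2. Without those 3 libraries Sparcl1 in APOE33 against wild type microglia turned to -1.16 from 0.70. The cause was not tested.

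Leaving out each library in turn, the counts ranged as follows. APOE44 against APOE33 gave 0 to 1 in astrocytes, in microglia and for the effect between cell types. Knock-out against APOE33 gave 6 to 11 in astrocytes and 3 to 6 in microglia, and 3 to 7 for the effect between cell types. Against wild type in astrocytes the counts were 7 to 12 for APOE33, 11 to 13 for APOE44 and 17 to 20 for knock-out, and in microglia 11 to 15, 9 to 13 and 6 to 11. The cell type comparisons gave 30 to 31 in batch 1 and 30 to 32 in wild type. Of single members, 4124 refits kept the same outcome, called or not, 169 lost the call, 104 gained it and 1 reversed. A change of direction was counted only where the main fit or the refit called the gene.

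The replicate block called 5 members in knock-out against APOE33 astrocytes, 3 in microglia and 2 for the effect between cell types, against 9, 6 and 6. The correlation of deviations in same-numbered libraries ran from -0.184 to 0.149 over 22 pairs of astrocyte and microglia libraries, which share their labelled sex in all 22, from -0.25 to 0.205 between astrocyte genotypes and from -0.315 to 0.241 between microglia genotypes. No comparison had every pair over 0.1 (at most 3 of 6, APOE44 and wild-type microglia), and the labels do not say that a number marks a shared animal, so pairing was not established. Members under about 1 CPM in microglia rest on few counts and are limited by depth.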
